A study of Homo sapiens with 12 samples.

Results

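Purine and pyrimidine nucleotides, the building blocks of RNA and DNA, are made from amino acids, carbon units and ribose phosphate by a small set of enzymes, and the genes of 10 of these enzymes are described here in MV-4-11 cells treated with a ceramide transport inhibitor and a FLT3 inhibitor. The 10 genes (CAD, UMPS, DHODH, CTPS1, PPAT, PAICS, GART, ATIC, ADSL and IMPDH2) were chosen by symbol, were each found as 1 row of the 20036 genes in the table, and all 10 passed the filter of at least 1 FPKM in at least 3 of 12 libraries. MV-4-11 is a human acute myeloid leukaemia line of monocytic type that carries an activated FLT3 receptor and a KMT2A fusion, is labelled wild type for genotype, and was cultured with serum. RNA from 4 groups of 3 libraries was sequenced. These were cells given (1R,3S)-HPA-12 and crenolanib together (combination), crenolanib alone, HPA-12 alone, and DMSO, the solvent. HPA-12 inhibits CERT, which carries ceramide from the endoplasmic reticulum to the Golgi, and crenolanib inhibits the FLT3 kinase. The 3 treated groups were labelled as 48 h, no time is given for DMSO, and the labels state no dose. All groups are the same cell line. Whether a group's libraries are separate cultures is not said, so p-values set group differences only against the scatter of these libraries, and that scatter may be technical.

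In the purine pathway, PPAT makes the first committed step, GART carries out 3 steps, PAICS carries out 2, ADSL removes fumarate from 2 different intermediates, and ATIC closes the ring to give IMP. IMPDH2 then turns IMP towards guanine nucleotides. In the pyrimidine pathway, CAD carries the first 3 activities on 1 chain, DHODH works in the inner mitochondrial membrane, UMPS makes UMP, and CTPS1 turns UTP into CTP. Proliferating blood cells use these routes heavily, and MYC is known to activate many of these genes.

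Levels are FPKM, reads scaled by gene length and library size by the authors. Changes are log2 differences of FPKM + 1 with the standard error of a limma fit over all 12 libraries and 11149 genes. For genes of low FPKM such differences come out too small. "Rose" and "fell" mean an adjusted p (Benjamini-Hochberg over all genes tested) below 0.05. Estimated depth was 4.40 to 5.07 M reads in the combination libraries, 10.1 to 10.2 M with crenolanib, 12.1 to 12.8 M with HPA-12 and 13.6 to 15.98 M with DMSO. The 13 mitochondrially encoded genes took 62.2 ± 0.502% of the FPKM sum in the combination, 36.0 ± 0.119% with crenolanib, 21.6 ± 0.472% with HPA-12 and 19.8 ± 0.209% with DMSO (SD, n = 3), and the combination libraries stood apart from the rest. All 10 markers chosen for MV-4-11, FLT3 and HOXA9 among them, were above 0 in every library, and they summed to 359 to 383 FPKM in the combination, 860.1 to 883 with crenolanib, 892 to 928 with HPA-12 and 1081 to 1093 with DMSO. By gene, 5 of these 10 rose and 2 fell with HPA-12, beside 27.7% and 23.0% of all genes. With crenolanib 3 rose and 5 fell (27.4% and 28.9% of all genes), and in the combination 1 and 8 (14.8% and 56.5%). The summed level of 18 erythroid and megakaryocytic markers was 27070 to 27470 FPKM in the combination, 4325 to 4595 with crenolanib, 219 to 225 with HPA-12 and 80.4 to 88.3 with DMSO, mostly HBB, with 1 to 4 of the markers at 0 in each library and PF4 at 0 in all 12. The 8 lymphoid markers summed to at most 8.90 FPKM in any library, and the 10 stromal and epithelial markers to at most 24.4 (combination library 2). The part of this shift, of the mitochondrial share and of the depth in the changes described here was not tested. In bulk RNA, fewer cells of a type and less RNA per cell cannot be told apart.

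Promoter windows, from 250 bases before to 50 bases after a start site (RefSeq, GRCh38.p14), were found for 8 of the 10 genes. These 8 genes have 13 windows, as some have several listed start sites. PPAT and PAICS face away from each other. A PAICS start site lies 137 bases from that of PPAT, so these windows overlap. Other PAICS start sites are listed at -25108 and 645 bases from that of PPAT, and their windows do not overlap the PPAT window. The 6-letter motif CACGTG, the E-box that MYC and related factors bind, reads the same on both strands. It was found in at least 1 window of 4 of these 8 genes. On the same count, 8.77% of the 27305 genes with a window had it. The PPAT window and the PAICS window that overlaps it share 1 copy, so the 4 genes count as 3 separate regions. The other PAICS windows hold no copy. The 8-letter motif TGATGCAA, searched on both strands as a site of the ATF4 type, was in 0 of the 8 and in 1.08% of all genes. These matches describe letters only. Windows are shown for PAICS, ATIC and DHODH, which hold CACGTG (in capitals), and for CAD, a MYC target with no match in this window.

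PAICS, chr4:56435502-56435801, plus strand, 1 copy starting 40 bases after the start site: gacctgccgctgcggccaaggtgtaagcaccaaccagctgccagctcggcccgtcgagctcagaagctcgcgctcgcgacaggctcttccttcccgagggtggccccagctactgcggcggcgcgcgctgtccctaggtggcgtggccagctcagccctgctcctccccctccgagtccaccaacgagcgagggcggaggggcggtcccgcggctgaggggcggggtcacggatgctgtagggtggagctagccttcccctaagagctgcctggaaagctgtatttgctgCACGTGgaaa

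ATIC, chr2:215311809-215312108, plus strand, copies starting 46 bases before and 29 bases after the start site: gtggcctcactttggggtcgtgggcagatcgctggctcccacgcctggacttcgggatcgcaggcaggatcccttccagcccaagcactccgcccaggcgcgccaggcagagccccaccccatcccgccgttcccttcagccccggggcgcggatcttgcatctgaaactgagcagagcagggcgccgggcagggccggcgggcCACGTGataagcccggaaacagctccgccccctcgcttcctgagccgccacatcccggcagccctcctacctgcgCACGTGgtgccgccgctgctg

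DHODH, chr16:72008494-72008793, plus strand, 1 copy starting 159 bases before the start site: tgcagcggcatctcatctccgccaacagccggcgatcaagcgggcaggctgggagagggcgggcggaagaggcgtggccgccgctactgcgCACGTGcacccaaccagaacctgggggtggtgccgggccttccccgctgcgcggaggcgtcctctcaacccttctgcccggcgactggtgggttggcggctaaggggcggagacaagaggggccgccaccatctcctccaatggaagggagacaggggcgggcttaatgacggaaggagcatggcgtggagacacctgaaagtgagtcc

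CAD, chr2:27217119-27217418, plus strand, no copy: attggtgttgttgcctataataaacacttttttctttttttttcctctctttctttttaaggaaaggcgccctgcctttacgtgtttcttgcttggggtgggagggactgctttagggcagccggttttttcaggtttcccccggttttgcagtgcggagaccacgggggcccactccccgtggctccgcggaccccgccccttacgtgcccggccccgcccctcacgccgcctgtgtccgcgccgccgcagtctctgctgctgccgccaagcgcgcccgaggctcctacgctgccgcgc

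In DMSO the 10 genes spanned a wide range of levels, and none of the neighbours in the order overlapped between libraries. ATIC was highest, at 45.4 ± 1.58 FPKM (SD, n = 3, as for all means here), followed by CAD, GART, PAICS, UMPS, CTPS1, DHODH, PPAT and IMPDH2, with ADSL lowest at 1.47 ± 0.0783 FPKM. Summed over the 10 genes, the level was 62.6, 53.9 and 63.5 FPKM in the combination, 73.8, 79.3 and 72.3 with crenolanib and 52.6, 53.6 and 53.5 with HPA-12, against 183, 186 and 186 with DMSO. All 9 treated libraries lay below the 3 DMSO libraries. Divided by the median level of all tested genes in the same library, which does not depend on how libraries are scaled, the sum was 15.6, 13.8 and 16.2 in the combination, 11.5, 12.5 and 11.4 with crenolanib and 8.80, 8.33 and 8.60 with HPA-12, against 30.9, 30.6 and 31.1 with DMSO. On this ratio HPA-12 was the lowest group and the combination the highest of the treated groups.

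**Figure D1:**
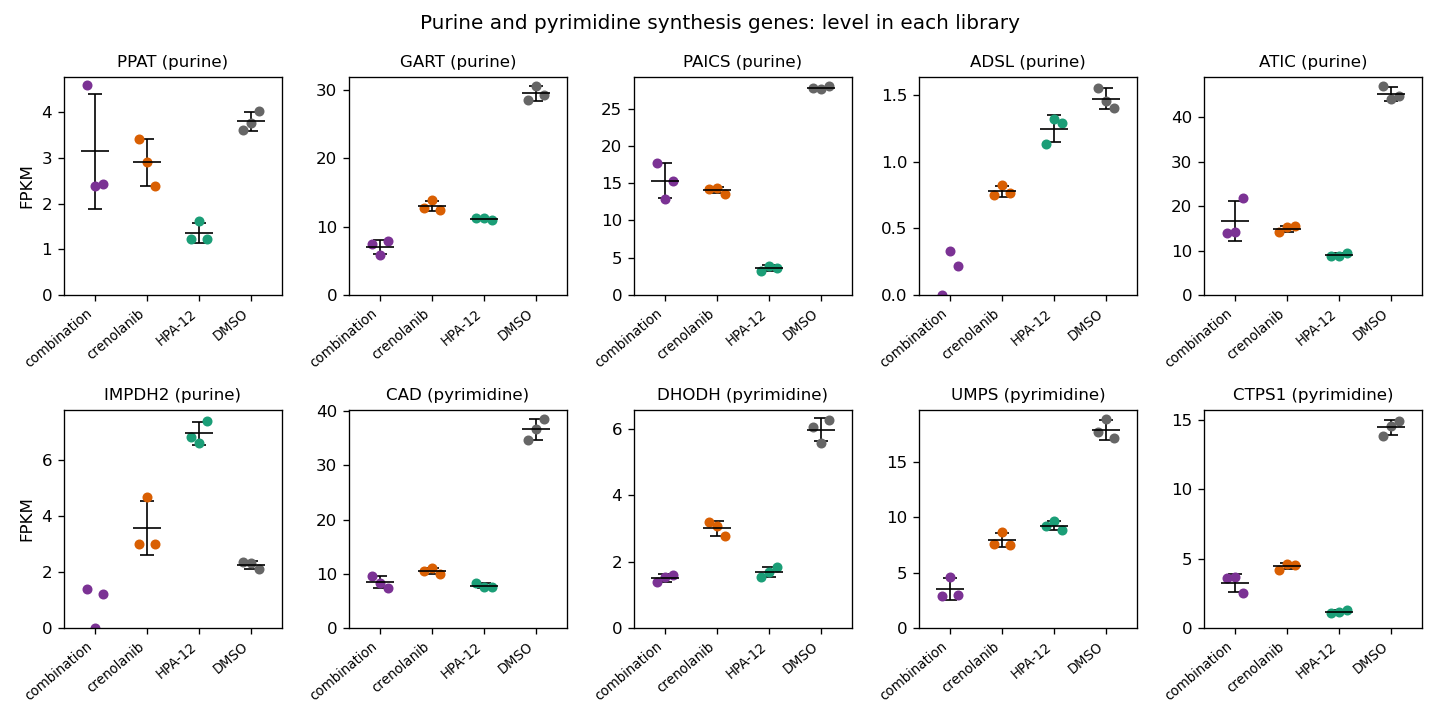
FPKM (vertical axis, from 0) of each of the 10 genes in each library, with the 4 groups along the horizontal axis. Points are libraries, and the long dash and bars are the mean and SD of 3, left out where a library is listed at 0. DMSO is the highest group for 9 of the 10 genes by mean, and IMPDH2 is highest with HPA-12, at 6.62 to 7.42 FPKM.

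HPA-12 against DMSO tested the CERT inhibitor by itself. Of the 10 genes, 8 fell and 1 rose, while 23.0% of all genes tested fell and 27.7% rose. The 3 HPA-12 libraries lay wholly below DMSO for 9 genes and wholly above for 1, against 35.3% and 44.2% of all genes. The median change of the 10 genes was -1.35, and that of all genes 0.09. The falls were deepest in CTPS1 and PAICS, and the rise was that of IMPDH2. Of 11149 genes, 31 had a lower fold change than CTPS1 and 47 a lower one than PAICS.

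Among the early purine genes, PAICS, which makes the intermediates between GART and ADSL, had 3.15, 3.95 and 3.63 FPKM with HPA-12 and 27.8, 27.7 and 28.0 with DMSO (-2.66 ± 0.11, adjusted p = 6.8e-09). The groups did not overlap, and PAICS was at 0.158 of its DMSO level on the FPKM + 1 scale. PPAT, the gatekeeper of the pathway, had 1.23, 1.62 and 1.22 FPKM with HPA-12 and 3.61, 3.77 and 4.03 with DMSO (-1.03 ± 0.19, adjusted p = 8.9e-04), again without overlap. PAICS has a listed start site beside that of PPAT. Still, the ratio of PAICS to PPAT was 2.56, 2.44 and 2.97 with HPA-12 and 7.69, 7.36 and 6.96 with DMSO. PAICS was thus lowered more within each HPA-12 library. GART had 11.2, 11.2 and 11.0 FPKM with HPA-12 and 28.5, 30.6 and 29.2 with DMSO (-1.33 ± 0.10, adjusted p = 8.7e-07). Its exons overlap those of SON on the other strand over 3.55% of their length in GENCODE 29, and SON had 41.1, 44.1 and 41.4 FPKM with HPA-12 and 27.1, 32.5 and 30.1 with DMSO, so that with HPA-12 it was higher while GART was lower. Whether strand was used in counting is not stated, so GART is uncertain to that extent.

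ATIC, which makes the last 2 steps to IMP, had 8.85, 8.84 and 9.44 FPKM with HPA-12 and 47.1, 44.1 and 44.9 with DMSO (-2.21 ± 0.14, adjusted p = 1.9e-07), with no overlap. ADSL had 1.13, 1.32 and 1.29 FPKM with HPA-12 and 1.56, 1.45 and 1.40 with DMSO. Its change was -0.14 ± 0.14 (adjusted p = 0.422, 95% interval -0.43 to 0.16), which did not pass. The same-strand gene AL022238.4 shares 18.9% of the ADSL exon length and was at or near 0 in every library (at most 0.223 FPKM). Without knowing how shared reads were counted, the low level of ADSL is uncertain.

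IMPDH2, the enzyme at the branch to GTP, went the other way, with 6.85, 6.62 and 7.42 FPKM with HPA-12 against 2.37, 2.32 and 2.09 with DMSO. Every HPA-12 library lay above every DMSO library (1.29 ± 0.28, adjusted p = 0.00244). The call ended with a pseudocount of 0.1 (1.58, adjusted p = 0.133). Its paralog IMPDH1, which does the same reaction, had 11.7, 9.26 and 11.3 FPKM with HPA-12 and 58.7, 54.0 and 57.0 with DMSO (-2.30 ± 0.20, adjusted p = 2.1e-06). The ratio of IMPDH2 to IMPDH1 within a library was 0.587, 0.715 and 0.657 with HPA-12 and 0.0404, 0.0429 and 0.0368 with DMSO, and the 2 genes moved in opposite directions. Reads that fit both paralogs may have been split between them, and 3.35% of the IMPDH2 exon length lies opposite an antisense gene, so the levels of IMPDH2 are uncertain.

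All 4 pyrimidine genes fell. CAD had 8.37, 7.50 and 7.56 FPKM with HPA-12 and 34.6, 36.8 and 38.5 with DMSO (-2.10 ± 0.10, adjusted p = 2.1e-08). CTPS1, the form of CTP synthase that dividing blood cells rely on, had 1.10, 1.16 and 1.28 FPKM with HPA-12 and 13.9, 14.6 and 14.9 with DMSO (-2.83 ± 0.13, adjusted p = 1.2e-08). Neither gene overlapped between the groups. Its paralog CTPS2 had 4.15, 4.24 and 4.61 FPKM with HPA-12 and 4.40, 4.32 and 3.997 with DMSO (0.026 ± 0.18, adjusted p = 0.917, 95% interval -0.36 to 0.41). The ratio of CTPS1 to CTPS2 was 0.265, 0.273 and 0.278 with HPA-12 and 3.15, 3.38 and 3.74 with DMSO. CTPS1 was thus the lower of both paralogs in the HPA-12 libraries and the higher one in the DMSO libraries. DHODH had 1.53, 1.69 and 1.84 FPKM with HPA-12 and 6.07, 5.59 and 6.26 with DMSO (-1.38 ± 0.12, adjusted p = 1.9e-06). UMPS had 9.19, 9.68 and 8.85 FPKM with HPA-12 and 17.7, 18.8 and 17.1 with DMSO (-0.88 ± 0.14, adjusted p = 2.5e-04), the smallest of the 4 falls.

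Crenolanib against DMSO tested the FLT3 inhibitor by itself. Of the 10 genes, 8 fell and 0 rose, while 28.9% of all genes tested fell and 27.4% rose (48.7% of the called genes had risen, or 59.1% under upper-quartile scaling). The crenolanib libraries lay wholly below DMSO for 9 genes and wholly above for 1, against 40.4% and 37.4% of all genes. The median change of the 10 genes was -1.01, and that of all genes -0.04. CAD, ATIC and CTPS1 fell most, and PPAT and IMPDH2 did not pass. All comparisons with DMSO share its 3 libraries.

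CAD had 10.5, 11.1 and 9.87 FPKM with crenolanib and 34.6, 36.8 and 38.5 with DMSO (-1.71 ± 0.10, adjusted p = 1.0e-07), and 47 of 11149 genes had a lower fold change. CTPS1 had 4.19, 4.63 and 4.58 FPKM with crenolanib and 13.9, 14.6 and 14.9 with DMSO (-1.50 ± 0.13, adjusted p = 2.1e-06). UMPS had 7.58, 8.65 and 7.51 FPKM with crenolanib and 17.7, 18.8 and 17.1 with DMSO (-1.08 ± 0.14, adjusted p = 4.7e-05). In each of these the crenolanib libraries lay wholly below DMSO, as they did for DHODH, the mitochondrial step, with 3.20, 3.07 and 2.76 FPKM with crenolanib and 6.07, 5.59 and 6.26 with DMSO (-0.80 ± 0.12, adjusted p = 1.2e-04).

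On the purine side, ATIC had 14.2, 15.2 and 15.4 FPKM with crenolanib and 47.1, 44.1 and 44.9 with DMSO (-1.54 ± 0.14, adjusted p = 3.1e-06). GART had 12.7, 13.8 and 12.4 FPKM with crenolanib and 28.5, 30.6 and 29.2 with DMSO (-1.12 ± 0.10, adjusted p = 3.0e-06), and SON on the other strand had 66.3, 63.8 and 64.0 FPKM with crenolanib. PAICS had 14.3, 14.3 and 13.6 FPKM with crenolanib and 27.8, 27.7 and 28.0 with DMSO (-0.94 ± 0.11, adjusted p = 3.0e-05). These 3 genes did not overlap between the groups. PPAT, the neighbour of PAICS, had 3.42, 2.92 and 2.38 FPKM with crenolanib and 3.61, 3.77 and 4.03 with DMSO (-0.31 ± 0.19, adjusted p = 0.198, 95% interval -0.73 to 0.12). PPAT did not pass here, but it did when the combination group (adjusted p = 0.0272) or its library 1 (adjusted p = 0.0492) was left out, or when each group had a weight for its own spread (adjusted p = 0.0219), an alternative chosen after seeing the data. ADSL had 0.747, 0.825 and 0.764 FPKM with crenolanib and 1.56, 1.45 and 1.40 with DMSO, and fell by 0.47 ± 0.14 (adjusted p = 0.0106), a call that ended with a pseudocount of 0.1 (adjusted p = 0.158) and under upper-quartile scaling (adjusted p = 0.0688). IMPDH2 had 3.01, 4.70 and 3.01 FPKM with crenolanib and 2.37, 2.32 and 2.09 with DMSO, every crenolanib library above every DMSO library (0.47 ± 0.28, adjusted p = 0.174), and passed when the combination group (adjusted p = 0.00471) or its library 2 (adjusted p = 0.0132) was left out, or with the group weights (adjusted p = 0.00362).

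**Figure D2:**
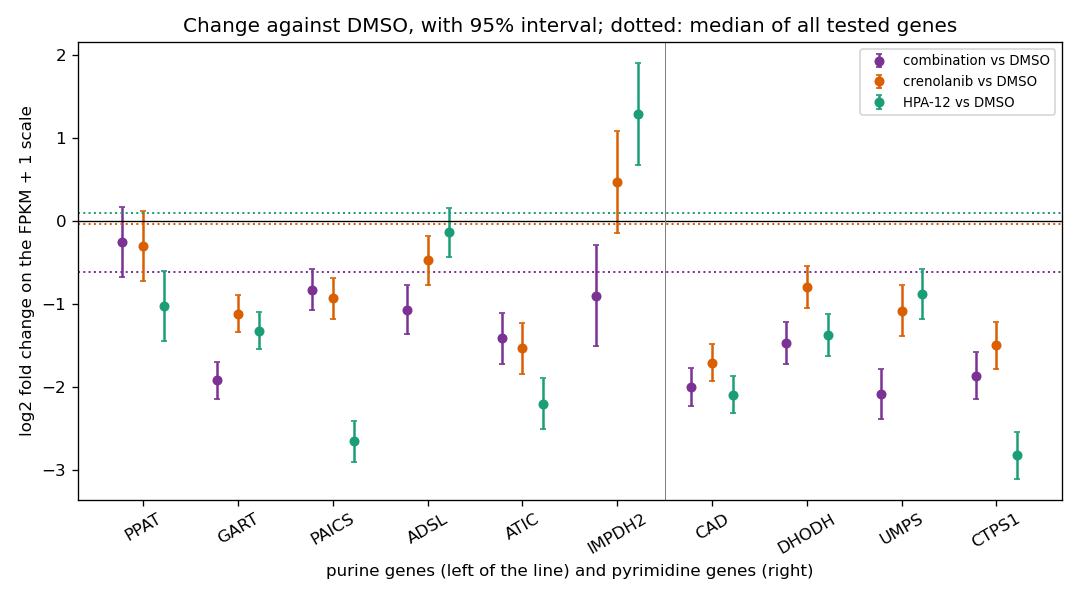
Log2 fold change against DMSO (vertical axis, FPKM + 1 scale) of each gene in the combination, with crenolanib and with HPA-12, with 95% intervals of the limma fit. Dotted lines are the median change of all 11149 genes, at -0.62 in the combination. CTPS1 and PAICS lie lowest with HPA-12, at -2.83 and -2.66, and IMPDH2 with HPA-12 lies above 0.

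Crenolanib against HPA-12 compared the single agents, at doses the labels do not state. Of the 10 genes, 6 were higher and 1 lower with crenolanib, while 19.5% of all genes were higher and 21.6% lower (47.5% of the called genes were higher, or 59.7% under upper-quartile scaling). PAICS averaged 14.1 ± 0.409 FPKM with crenolanib and 3.58 ± 0.405 with HPA-12 (1.72 ± 0.11, adjusted p = 4.1e-07), and CTPS1 averaged 4.47 ± 0.242 FPKM with crenolanib and 1.18 ± 0.0945 with HPA-12 (1.33 ± 0.13, adjusted p = 1.2e-05). ATIC (0.67 ± 0.14), PPAT (0.72 ± 0.19), DHODH (0.58 ± 0.12) and CAD (0.38 ± 0.10) were higher with crenolanib as well. The gene that was lower, IMPDH2 (-0.82 ± 0.28, adjusted p = 0.0351), lost its call when crenolanib library 1 or 3, DMSO library 1 or 2, or any HPA-12 library was left out, with adjusted p between 0.0502 and 0.108, and under several other alternatives. GART differed by 0.20 ± 0.10 (adjusted p = 0.134, 95% interval -0.021 to 0.43), UMPS by -0.20 ± 0.14 (adjusted p = 0.268, interval -0.51 to 0.10) and ADSL by -0.34 ± 0.14 (adjusted p = 0.0661, interval -0.63 to -0.040), none of which passed as deposited in the fit of all 4 groups. GART passed under upper-quartile scaling (0.30, adjusted p = 0.0379), and GART and ADSL with a weight for each group's spread (adjusted p = 0.0187 and 0.00938). All 3 passed once the combination group was dropped (adjusted p = 0.00986, 0.0277 and 0.00651). GART also passed without combination library 2 alone (adjusted p = 0.0307), and ADSL without any 1 combination library (0.0178, 0.0281 and 0.042).

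The combination against DMSO asked what both compounds did together. Of the 10 genes, 9 fell and 0 rose, and 56.5% of all genes tested fell and 14.8% rose, so falls were the commonest call in this comparison. The combination libraries lay wholly below DMSO for 9 genes and wholly above for 0, against 56.4% and 15.1% of all genes. The median change was -1.45 for the 10 genes and -0.62 for all genes. Rises made up 20.8% of all calls as deposited, 44.6% with median-ratio scaling and 45.5% with upper-quartile scaling, where the median of all genes was -0.12 and -0.10 and that of the 10 genes -0.94 and -0.91. CAD, UMPS, DHODH, CTPS1, GART, ATIC and ADSL fell under every scaling tried, while PAICS and IMPDH2 lost their calls under both of these scalings and the sign of PPAT turned. The combination libraries scatter more than the others, and with a weight for each group's spread the same 9 genes passed.

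UMPS, which makes UMP, had 2.87, 4.62 and 2.98 FPKM in the combination and 17.7, 18.8 and 17.1 with DMSO (-2.09 ± 0.14, adjusted p = 7.4e-08, and -1.51 under median-ratio scaling). It was the most lowered of the 10 on this scale. CAD had 9.56, 8.32 and 7.36 FPKM in the combination and 34.6, 36.8 and 38.5 with DMSO (-2.01 ± 0.10, adjusted p = 8.3e-09, and -1.36 under median-ratio scaling). CTPS1 had 3.63, 3.64 and 2.53 FPKM in the combination and 13.9, 14.6 and 14.9 with DMSO (-1.87 ± 0.13, adjusted p = 1.1e-07, and -1.29 under median-ratio scaling). For each the combination libraries lay wholly below DMSO. DHODH had 1.38, 1.54 and 1.60 FPKM in the combination and 6.07, 5.59 and 6.26 with DMSO (-1.48 ± 0.12, adjusted p = 3.2e-07), also without overlap.

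Of the purine genes, GART had 7.48, 5.90 and 7.82 FPKM in the combination and 28.5, 30.6 and 29.2 with DMSO (-1.92 ± 0.10, adjusted p = 1.1e-08), its lowest level of the 4 groups as deposited. SON on the other strand had 26.1, 21.5 and 26.4 FPKM in the combination and 27.1, 32.5 and 30.1 with DMSO. These are values as deposited, and the order of the 2 groups for SON depends on the scaling. The part of SON reads in the GART level was not tested. ATIC had 14.0, 14.3 and 21.9 FPKM in the combination and 47.1, 44.1 and 44.9 with DMSO (-1.42 ± 0.14, adjusted p = 2.4e-06), with combination library 3 above the other combination libraries. PAICS had 17.7, 12.9 and 15.4 FPKM in the combination and 27.8, 27.7 and 28.0 with DMSO (-0.83 ± 0.11, adjusted p = 3.6e-05). The change was -0.17 under median-ratio scaling (adjusted p = 0.194) and -0.15 under upper-quartile scaling (adjusted p = 0.264). PPAT had 4.597, 2.39 and 2.44 FPKM in the combination and 3.61, 3.77 and 4.03 with DMSO, with combination library 1 above all DMSO libraries (-0.25 ± 0.19, adjusted p = 0.259, 95% interval -0.68 to 0.17). Without that library its change was -0.49 (adjusted p = 0.0078), and with the 2 scalings above it was 0.29 and 0.30.

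ADSL and IMPDH2 were near the limit of these shallow libraries. ADSL had 0, 0.326 and 0.215 FPKM in the combination, listed at 0 in library 1, against 1.56, 1.45 and 1.40 with DMSO, and fell by 1.07 ± 0.14 (adjusted p = 1.8e-05). Its estimated reads were 0, 11.7 and 7.05 in the combination libraries and 177, 140.3 and 137 in the DMSO libraries. IMPDH2 had 1.38, 0 and 1.23 FPKM in the combination, listed at 0 in library 2, against 2.37, 2.32 and 2.09 with DMSO (-0.90 ± 0.28, adjusted p = 0.0122). Its estimated reads were 16.8, 0 and 15.7 in the combination libraries, and its change was -0.50 without combination library 2, where it still passed. The call ended in a fit of these 2 groups alone (adjusted p = 0.0583) and under median-ratio scaling (adjusted p = 0.165).

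HPA-12 added to crenolanib was asked by the combination against crenolanib. As deposited, 7 of the 10 genes fell and 0 rose, while 61.2% of all genes tested fell and 8.78% rose, and the medians were -0.48 for the 10 genes and -0.64 for all genes, or -0.002 and -0.13 under median-ratio scaling. The count of falls is near the share of all genes and is no result about the 10 genes as a set. Rises made up 12.5% of calls as deposited, 42.8% with median-ratio and 34.0% with upper-quartile scaling. Under median-ratio scaling 3 of the 10 were lower and 4 higher, among them ATIC (0.77, adjusted p = 0.00117, against 0.12 ± 0.14 as deposited) and PPAT (0.58, adjusted p = 0.0337, against 0.053 ± 0.19 as deposited). UMPS (-1.01 ± 0.14, adjusted p = 5.7e-05), ADSL (-0.60 ± 0.14, adjusted p = 0.00194) and IMPDH2 (-1.37 ± 0.28, adjusted p = 0.00103) were lower in the combination under every alternative that kept them in the test. PAICS had 15.3 ± 2.38 FPKM in the combination and 14.1 ± 0.409 with crenolanib (0.11 ± 0.11, adjusted p = 0.419), and 0.75 under median-ratio scaling (adjusted p = 1.7e-04). CAD was lower as deposited (-0.29 ± 0.10, adjusted p = 0.0243) and higher under median-ratio scaling (0.33, adjusted p = 0.0245), and it lost its call without combination library 3 (-0.21, adjusted p = 0.0632), crenolanib library 1 (-0.29, adjusted p = 0.0569) or crenolanib library 2 (-0.26, adjusted p = 0.0809). CTPS1 fell as deposited (-0.37 ± 0.13, adjusted p = 0.0245) and had 0.18 under median-ratio scaling. It did not pass without combination library 3 (-0.24, adjusted p = 0.0526), crenolanib library 2 (-0.35, adjusted p = 0.0679) or crenolanib library 3 (-0.35, adjusted p = 0.064). The falls of DHODH (-0.68 ± 0.12) and GART (-0.80 ± 0.10) did not pass under median-ratio scaling (-0.22 and -0.18). With a weight for each group's spread CAD (adjusted p = 0.194) and CTPS1 (adjusted p = 0.159) did not pass either.

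Crenolanib added to HPA-12 was asked by the combination against HPA-12. Of the 10 genes, 4 rose and 4 fell, while 14.5% of all genes tested rose and 57.8% fell, with medians of 0.00 for the 10 genes (-0.005 before rounding) and -0.64 for all genes, or 0.55 and -0.11 under median-ratio scaling. Rises were 20.1% of the calls as deposited, 45.2% with median-ratio and 42.2% with upper-quartile scaling. PAICS averaged 15.3 ± 2.38 FPKM in the combination and 3.58 ± 0.405 with HPA-12 (1.83 ± 0.11, adjusted p = 4.1e-08), and the groups did not overlap. CTPS1 (0.96 ± 0.13), ATIC (0.79 ± 0.14) and PPAT (0.78 ± 0.19) rose too, and these 4 passed under every alternative that kept them in the test. UMPS averaged 3.49 ± 0.979 FPKM in the combination and 9.24 ± 0.419 with HPA-12 (-1.21 ± 0.14, adjusted p = 8.6e-06). ADSL (-0.94 ± 0.14) and IMPDH2 (-2.19 ± 0.28) fell with it, and GART (-0.60 ± 0.10) fell as deposited but had 0.053 under median-ratio scaling. CAD (0.091 ± 0.10, adjusted p = 0.445) and DHODH (-0.10 ± 0.12, adjusted p = 0.451) did not pass as deposited, and both were higher in the combination under median-ratio scaling (0.74 and 0.36).

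**Figure D3:**
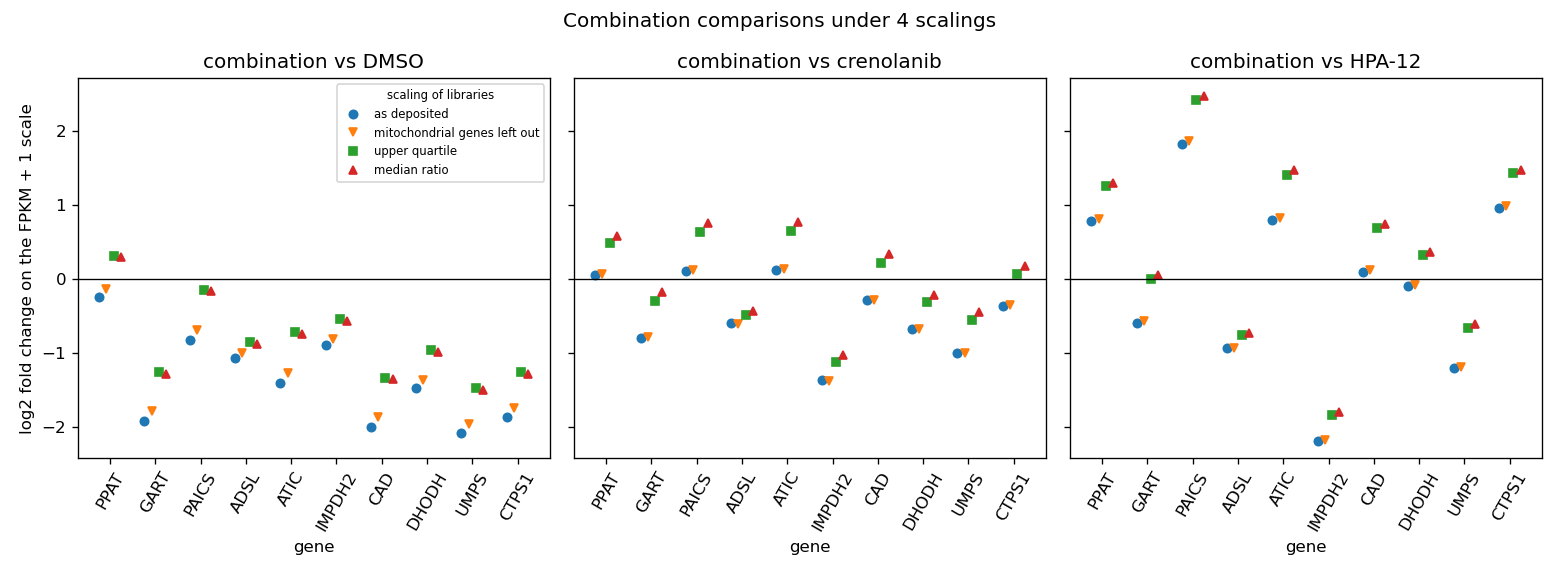
Log2 fold changes (vertical axis, FPKM + 1 scale) of the 10 genes in the 3 comparisons that use the combination, with libraries scaled as deposited, to a total free of mitochondrial genes, by upper quartile and by median ratio. PAICS stays above 0 against HPA-12 at 1.83 as deposited and higher under the other scalings, while CAD against crenolanib changes sign.

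The interaction, the change with HPA-12 in the presence of crenolanib less the change without it, was tested in the same fit. It was positive and passed for 7 of the 10 genes and negative for 1, while 15.4% of all genes had a positive and 50.0% a negative one. Positive interactions made up 23.6% of all calls as deposited, 46.3% with median-ratio and 37.9% with upper-quartile scaling, and the medians were 0.89 for the 10 genes and -0.65 for all genes, or 1.37 and -0.13 under median-ratio scaling. PAICS had the largest positive one of the 10, at 2.76 ± 0.16 (adjusted p = 6.3e-08), as it changed by 0.11 ± 0.11 with HPA-12 on top of crenolanib and by -2.66 ± 0.11 with HPA-12 alone. CTPS1 had 2.46 ± 0.18 (adjusted p = 4.5e-07), ATIC 2.33 ± 0.20 (adjusted p = 1.2e-06) and CAD 1.80 ± 0.15 (adjusted p = 8.3e-07). Smaller positive values were those of PPAT (1.08 ± 0.27), DHODH (0.70 ± 0.16) and GART (0.53 ± 0.14). Median-ratio scaling gave 3.40 for PAICS, 2.94 for CTPS1, 2.99 for ATIC, 2.43 for CAD, 1.58 for PPAT, 1.13 for DHODH and 1.16 for GART. All 7 were larger there, so their sizes depend on the scaling. GART had 0.43 once the total excluded mitochondrial genes. ADSL had -0.46 ± 0.19 (adjusted p = 0.0501), which did not pass. It passed with a pseudocount of 0.1 (adjusted p = 0.0453), with no filter (adjusted p = 0.039), with mitochondrial genes left out (adjusted p = 0.0288) and without combination library 2 (adjusted p = 0.0127) or 3 (adjusted p = 0.0352). For IMPDH2 it was -2.66 ± 0.40 (adjusted p = 1.1e-04), a rise with HPA-12 alone and a fall with HPA-12 on top of crenolanib. UMPS had -0.13 ± 0.20 (adjusted p = 0.589, 95% interval -0.56 to 0.30, and 0.45 under median-ratio scaling), with -1.01 ± 0.14 on top of crenolanib and -0.88 ± 0.14 alone. Combination libraries, the shallowest, enter each of these values.

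**Figure D4:**
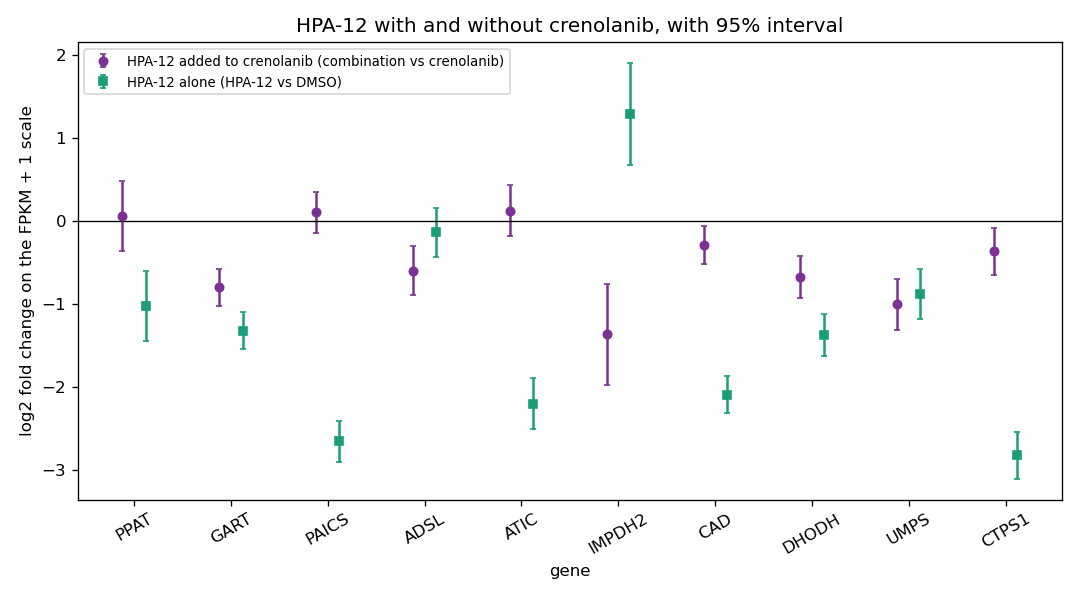
Log2 fold change (vertical axis, FPKM + 1 scale, with 95% intervals) for HPA-12 added to crenolanib (circles) and for HPA-12 alone (squares). For PAICS, CTPS1, ATIC and CAD the circles lie far above the squares, for UMPS their intervals overlap, and for IMPDH2 they lie on opposite sides of 0.

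Within the pathway the balance between steps differed among the groups. PAICS held 25.5 ± 2.42% of the summed FPKM of the 10 genes in the combination, 18.7 ± 0.630% with crenolanib and 6.71 ± 0.700% with HPA-12, against 15.03 ± 0.117% with DMSO. UMPS held 5.95 ± 2.26% in the combination, 10.5 ± 0.345% with crenolanib and 17.4 ± 0.768% with HPA-12, against 9.66 ± 0.485% with DMSO. These shares do not depend on library scaling. The order of levels also differed among the groups. GART was highest with HPA-12, at 11.1 ± 0.147 FPKM, followed by UMPS and ATIC, whose ranges overlapped. ATIC was highest with crenolanib, where the ranges of ATIC, PAICS and GART overlapped from 1 neighbour to the next. In the combination ATIC and PAICS led with overlapping ranges.

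MYC, known to activate many of these genes, had 17.5, 17.7 and 18.1 FPKM in the combination, 38.5, 33.7 and 32.3 with crenolanib and 6.62, 7.003 and 7.03 with HPA-12, against 159.8, 158 and 155 with DMSO. The HPA-12 libraries were lowest and the DMSO libraries highest, and no groups overlapped. MYC fell in all 3 comparisons with DMSO under every scaling. ATF4, which activates amino acid and folate genes under stress, had 157, 142 and 115 FPKM in the combination, 147, 135 and 139.9 with crenolanib and 163, 161 and 160.0 with HPA-12, against 86.7, 86.3 and 89.3 with DMSO, and rose in all 3. The part of either in the levels of the 10 genes was not tested.

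Wider lists of the same metabolism were examined beside the 10 genes, against medians over all genes of -0.62 in the combination, -0.04 with crenolanib and 0.09 with HPA-12. The shares of all genes to set each count as deposited beside are 56.5% that fell and 14.8% that rose in the combination, 28.9% and 27.4% with crenolanib, and 23.0% and 27.7% with HPA-12. They do not apply to the counts given under other scalings. Rises were 20.8% of all combination calls as deposited, 44.6% with median-ratio and 45.5% with upper-quartile scaling. With crenolanib they were 48.7% as deposited and 59.1% with upper-quartile scaling. Of 7 other purine genes, 5 fell and 0 rose with HPA-12, 4 and 0 with crenolanib (3 fell under upper-quartile scaling) and 6 and 0 with the combination (4 under median-ratio scaling). PFAS, the step between GART's activities, had 7.31, 7.83 and 5.74 FPKM in the combination, 8.78, 7.32 and 9.27 with crenolanib and 3.68, 4.19 and 3.87 with HPA-12, against 26.8, 27.4 and 28.2 with DMSO. Its changes were -1.85 ± 0.12, -1.60 ± 0.12 and -2.54 ± 0.12 in that order of treatments, and no treated library reached DMSO. IMPDH1 fell in the combination (-2.30 ± 0.20) and with crenolanib (-1.56 ± 0.20) as it did with HPA-12. The list median was -1.27 in the combination, -0.52 with crenolanib and -0.996 with HPA-12.

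Of 13 tested of 14 folate and serine genes, which supply carbon for the purine ring and thymidylate, 9 fell and 1 rose with HPA-12, 8 and 1 with crenolanib, and 11 and 0 with the combination (6 fell under median-ratio scaling). The median of these genes was -0.90 in the combination, -0.82 with crenolanib and -1.01 with HPA-12. PSAT1, of serine synthesis, averaged 8.74 ± 0.869 FPKM with HPA-12 and 34.5 ± 2.08 with DMSO (-1.87 ± 0.13, adjusted p = 3.9e-07). The folate carrier SLC19A1 fell in all 3 comparisons (-2.08 ± 0.19 in the combination, -1.57 ± 0.19 with crenolanib and -2.28 ± 0.19 with HPA-12). SHMT2, which loads carbon onto folate in mitochondria, averaged 14.8 ± 1.31 FPKM in the combination and 19.3 ± 1.07 with crenolanib, against 45.0 ± 1.97 with DMSO (-1.54 ± 0.084 and -1.18 ± 0.084). MTHFS rose with crenolanib (1.47 ± 0.37) and was near the detection limit in DMSO, at 0.151 ± 0.0486 FPKM.

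Of 8 other pyrimidine genes, 5 fell and 1 rose with HPA-12, 4 and 2 with crenolanib, and 4 and 2 with the combination (3 and 3 under median-ratio scaling). With 56.5% of all genes falling in the combination, 4 of 8 there is no result about the list. Their median change was -0.49 in the combination, -0.46 with crenolanib and -0.58 with HPA-12. NME4, a mitochondrial nucleoside diphosphate kinase, averaged 47.9 ± 3.56 FPKM in the combination, 18.7 ± 1.41 with crenolanib and 12.7 ± 0.634 with HPA-12, against 32.8 ± 2.46 with DMSO. It rose in the combination (0.53 ± 0.089, adjusted p = 1.9e-04) and fell with crenolanib (-0.78 ± 0.089) and HPA-12 (-1.30 ± 0.089). UCK1, a uridine-cytidine kinase, rose with HPA-12 (0.76 ± 0.095) and with crenolanib (0.25 ± 0.095, adjusted p = 0.0404, lost under median-ratio scaling) and fell in the combination (-1.09 ± 0.095). UCK2, the form raised in many tumours, fell in the combination (-1.69 ± 0.25). NME1 fell with HPA-12 (-1.30 ± 0.20), but its close copy NME2 may share its reads, so the value is uncertain. CMPK1 rose with crenolanib (0.79 ± 0.11) and in the combination (0.52 ± 0.11), and UCKL1 fell with crenolanib (-0.39 ± 0.095, lost under upper-quartile scaling).

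**Figure D5:**
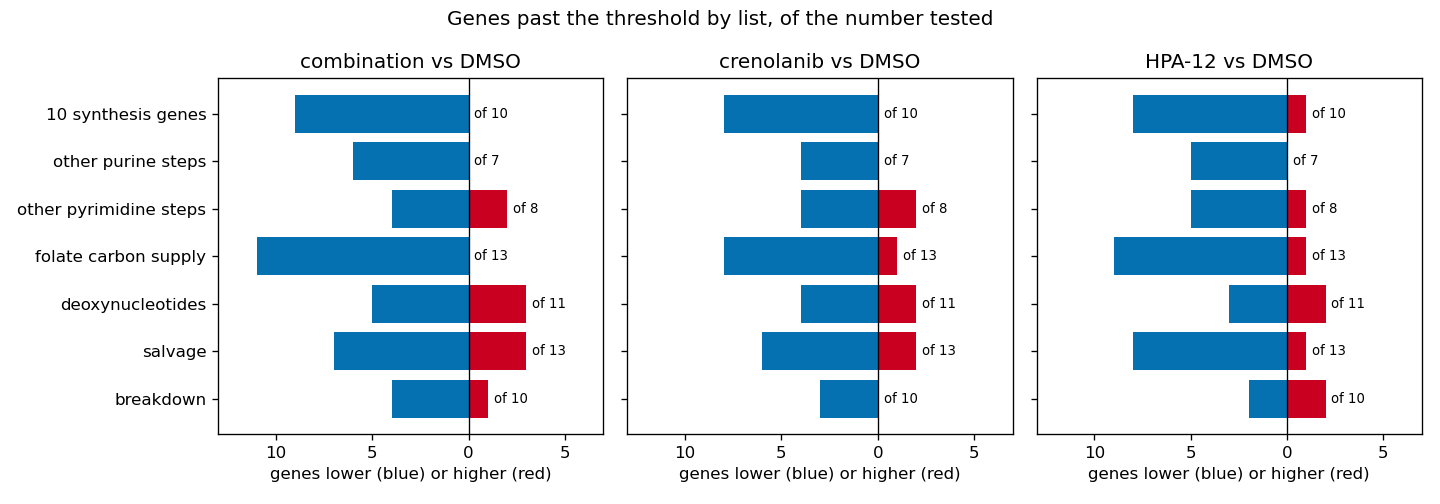
Number of genes past the threshold in each list (horizontal axis, lower to the left in blue, higher to the right in red) for each treatment against DMSO, with the number tested beside each bar. Values are as deposited. All lists but breakdown lean to the left in all 3 panels, and breakdown is even with HPA-12. The combination panel, where 56.5% of all genes fell, shifts under other scalings.

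Deoxynucleotide genes turn ribonucleotides into DNA precursors. Of 11 tested, 3 fell and 2 rose with HPA-12, 4 and 2 with crenolanib, and 5 and 3 with the combination (2 fell and 6 rose under median-ratio scaling). All genes fell in shares of 23.0%, 28.9% and 56.5% in these comparisons, so falls were near the shares of all genes with each agent alone and below it in the combination, and are no result about the list. Their median was -0.076 in the combination, -0.14 with crenolanib and -0.076 with HPA-12. RRM2B, the p53-induced small subunit of ribonucleotide reductase, rose with HPA-12 (1.42 ± 0.12) and crenolanib (1.52 ± 0.12), and so did DCK, a deoxynucleoside kinase (0.68 ± 0.14 and 0.86 ± 0.14). RRM2, the S-phase small subunit, had 16.8, 22.9 and 27.7 FPKM in the combination and 9.58, 9.63 and 9.58 with DMSO (1.12 ± 0.14, adjusted p = 1.9e-05). All 3 combination libraries lay above DMSO. DCTD and DTYMK fell with HPA-12 (-0.89 ± 0.089 and -0.71 ± 0.11) and crenolanib (-0.75 ± 0.089 and -0.68 ± 0.11), and SAMHD1, which breaks down deoxynucleotides, fell in the combination (-1.76 ± 0.088) with DCTD (-1.05 ± 0.089).

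Of 13 tested of 15 salvage genes, 8 fell and 1 rose with HPA-12, 6 and 2 with crenolanib, and 7 and 3 with the combination (3 and 4 under median-ratio scaling). The combination count is near the 56.5% of all genes that fell there and says nothing about the list. Here the median was -0.60 in the combination, -0.15 with crenolanib and -0.84 with HPA-12. APRT, which salvages adenine, averaged 30.5 ± 1.40 FPKM with crenolanib and 15.4 ± 1.19 with HPA-12, against 75.3 ± 4.96 with DMSO (-1.28 ± 0.10 and -2.22 ± 0.10). GUK1, the guanylate kinase, averaged 135 ± 6.75 FPKM in the combination and 29.7 ± 1.83 with crenolanib, against 21.5 ± 0.0805 with DMSO (2.60 ± 0.070, adjusted p = 3.1e-11, and 0.45 ± 0.070). PNP rose (0.80 ± 0.11) and DGUOK fell (-1.37 ± 0.092) in the combination, AK3 rose with crenolanib (0.43 ± 0.14), and UPP1 rose with HPA-12 (0.67 ± 0.26, adjusted p = 0.0465, lost under median-ratio and upper-quartile scaling).

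Of 10 tested of 16 breakdown genes, 2 fell and 2 rose with HPA-12, 3 and 0 with crenolanib, and 4 and 1 with the combination (1 and 3 under median-ratio scaling). The falls are near the 23.0% and 28.9% of all genes with each agent alone and below the 56.5% in the combination, and are again no result about the list. Over these genes the median was -0.039 in the combination, -0.38 with crenolanib and -0.25 with HPA-12. ITPA, which clears inosine triphosphate, fell with HPA-12 (-1.62 ± 0.13) and crenolanib (-1.54 ± 0.13), and in the combination had -0.57 ± 0.13 as deposited and 0.095 under median-ratio scaling. AMPD3 (0.97 ± 0.22) and NT5C2 (0.64 ± 0.24) rose with HPA-12, the call of NT5C2 ending under both of those scalings. NT5C3A, a pyrimidine nucleotidase of red cells, rose in the combination (0.79 ± 0.15), where AMPD2 fell (-1.20 ± 0.12).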

How the data were processed

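RNA of 12 MV-4-11 libraries was read from 1 table of FPKM values computed by the authors, per the file headers. The sources used here do not give the aligner, counter, strand setting or build. All 12 value columns were matched to libraries by name (crenolanib is abbreviated differently in titles and columns, read as the same compound), with 0 left over. Symbols were found for 20011 of 20036 identifiers.

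The 11149 genes reaching 1 FPKM in 3 or more libraries were fitted as log2(FPKM + 1) with limma 3.58.1 (R 4.3.3, statmod 1.5.0), with 4 group levels, a mean-variance trend and robust moderation. The interaction is the difference combination minus crenolanib, from which HPA-12 minus DMSO is subtracted. All p-values are two-sided. The design named a test for counts and one for normalised values, and the one for normalised values was used. The fit uses 1 spread for all groups, although libraries correlated across genes at 0.907 to 0.909 in the combination and at least 0.984 elsewhere. On simulated data with each group's own spread it recovered the changes, but in the combination it called more unchanged genes than the 0.05 threshold allows, so combination calls near the threshold are less certain than their p-values say. A fit with a weight for each group's spread (limma's arrayWeights) was added after seeing the data. On simulated data it made fewer such calls in the combination and more with each agent alone, and exceeded the threshold in all 3. Exact permutation of 3 against 3 libraries cannot reach 0.05, so it was not used.

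For depth, the total was sought at which the most low values, times GENCODE 29 gene length, gave whole reads (within 0.02 read). Between 37.3% and 46.8% did, so depths and reads are estimates. Deviations of same-numbered libraries correlated weakly (-0.029 to 0.068), and the main fit has no pairing. Still, 22 of 36 library and group combinations correlated best with their own number. That is more than an even spread over the 3 libraries of a group would give. Whether numbers mark paired libraries is not known. The genes and lists were chosen with earlier results of these data known. Named list genes are up to 2 rising and 2 falling per list and treatment, by p, against DMSO only, and some of these are not reported here; CTPS2, SON and AL022238.4 were named after their values were seen.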

Additional observations from a re-analysis of the deposited data

Results flagged for a closer look

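For 8 of the 10 genes the change with HPA-12 differed between cells with and without crenolanib, by the interaction test of the limma fit. The difference was 2.76 log2 units for PAICS, 2.46 for CTPS1, 2.33 for ATIC and 1.80 for CAD. It was 1.08 for PPAT, 0.70 for DHODH and 0.53 for GART, and -2.66 for IMPDH2. Under median-ratio scaling the value was 3.40 for PAICS, 2.94 for CTPS1, 2.99 for ATIC and 2.43 for CAD. The same scaling gave 1.16 for GART, 1.13 for DHODH, 1.58 for PPAT and -2.26 for IMPDH2. GART had 0.43 once the total excluded mitochondrial genes. All 8 passed under every alternative that kept the gene in the test.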

How the results depend on the processing

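Over 1462 combinations of a gene, a comparison and an alternative, 1382 kept the direction and the side of the threshold, 33 lost the call, 33 gained one and 14 changed sign. Against DMSO, 8 of 9 calls for HPA-12, 7 of 8 for crenolanib and 7 of 9 for the combination held under every alternative that kept the gene in the test, and all 8 interactions did.

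With a mean of at least 5 FPKM, which keeps 6 of the 10 genes and 6231 in all, the genes called were 3698 (HPA-12), 4102 (crenolanib) and 5197 (combination) against DMSO. They were 5051 for the combination against crenolanib, 5134 against HPA-12 and 4633 for the interaction. Members raised with HPA-12, lower with crenolanib than HPA-12 and with a negative interaction were then 0, and members lowered in the combination were 4 against crenolanib and 2 against HPA-12. Fewer genes were tested there. With a pseudocount of 0.1, 0 members rose with HPA-12, 0 were lower with crenolanib than with HPA-12, and 2 had a negative interaction, as with no filter (0 and 2) and with mitochondrial genes left out (2, for the interaction). Median-ratio scaling gave 5113 genes called for the combination against crenolanib, with 3 members lower and 4 higher, and upper-quartile scaling 2 higher. Both gave 0 members lower with crenolanib than with HPA-12. With only the compared groups, 8672 genes were called with HPA-12 and 7147 for crenolanib against HPA-12, where 2 members were lower, and 1 member rose with crenolanib. Without the combination these were 7581, 3 and 1. A weight for each group's spread, chosen after seeing the data, gave 8619 genes called with HPA-12, 7239 for crenolanib against HPA-12 with 2 members lower, and 1 member raised with crenolanib. For the remainder the cause was not tested.

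Signs that turned under median-ratio and upper-quartile scaling were those of PPAT in the combination against DMSO (0.29 and 0.30), CAD (0.33 and 0.21) and CTPS1 (0.18 and 0.069) against crenolanib, DHODH against HPA-12 (0.36 and 0.32) and the UMPS interaction (0.45 and 0.26), and under the first that of GART against HPA-12 (0.053). On leaving out 1 library at a time, the combination against crenolanib ranged from -0.18 to 0.18 for PPAT and from -0.076 to 0.23 for ATIC. Members raised with crenolanib ranged from 0 to 1, members lower with crenolanib than HPA-12 from 0 to 2, and negative interactions from 1 to 2. Leaving out 1 library gave 4627 to 6606 genes called with HPA-12 and 3346 to 5726 for crenolanib against HPA-12.

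The replicate block gave 5539 genes called with HPA-12 and 0 members lower with crenolanib than HPA-12 (IMPDH2, adjusted p = 0.0516), and it changed no other member's call. No pair of same-numbered libraries correlated above 0.1 (0 of 18). Of 36 library and group combinations, 22 correlated best with their own number, more than an even spread over a group's libraries would give. Depth limits ADSL and IMPDH2 in the combination most.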

Other observations

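Ratios between genes of the same pathway, which do not depend on library scaling, moved apart between the treatments. PAICS over GART was 2.37, 2.19 and 1.96 in the combination, 1.12, 1.04 and 1.10 with crenolanib and 0.280, 0.353 and 0.331 with HPA-12, against 0.974, 0.906 and 0.957 with DMSO. The combination libraries all lay above DMSO on this ratio and the HPA-12 libraries all below it. ATIC over GART was 1.87, 2.42 and 2.80 in the combination, 1.11, 1.10 and 1.24 with crenolanib and 0.788, 0.789 and 0.860 with HPA-12, against 1.65, 1.44 and 1.53 with DMSO. CAD over UMPS was 3.32, 1.80 and 2.47 in the combination, 1.39, 1.28 and 1.31 with crenolanib and 0.910, 0.774 and 0.854 with HPA-12, against 1.96, 1.95 and 2.25 with DMSO, with the combination and DMSO overlapping. These ratios were chosen after the values were seen.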
